A study of Arabidopsis thaliana with 12 samples.

Results

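The stomatal lineage genes described here are SPCH, MUTE, FMA, EPF1, EPF2, TMM, ER, ERL1, ERL2 and BASL of Arabidopsis thaliana, 10 loci of the 36101 listed in each of the 2 expression tables. They were found by their symbols in the gene column of both tables. The symbols matched 11 loci, because ER is also the symbol of AT5G10810 (ENHANCER OF RUDIMENTARY homologue, chromosome 5: 3418610 to 3420692), a gene other than ERECTA. That locus had 21.1 FPKM after oxo-C14-HSL and 19.6 FPKM after acetone under the ali1 label, and 22.1 FPKM after oxo-C14-HSL and 23.5 FPKM after acetone under the Col-0 label. It was left out of the members.

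Seedlings 2 weeks old, labelled ali1 (a T-DNA insertion line at At5g14470 in the Col-0 background) or Col-0 (wild type), received a pretreatment of 3 days, either with oxo-C14-HSL at 6 µM, a long-chain N-acyl homoserine lactone with which bacteria signal to each other, or with acetone, its solvent. All 4 groups were then challenged for 2 h with 100 nM flg22, a peptide of bacterial flagellin that plants recognise, so that no group lacks the flg22 challenge. Each group had 3 libraries of polyadenylated RNA from whole seedlings, 12 in all, and ali1 is a single insertion line that was brought to a non-segregating state. The tables give 1 value per group, in FPKM (fragments per kilobase of transcript, scaled to the mapped fragments of the group), so that the spread between the 3 libraries is not known and no comparison below carries a test.

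The checks of the whole series touch every comparison between the labels. ALI1 itself, the gene disrupted in ali1, had 30.1 FPKM after oxo-C14-HSL and 27.4 FPKM after acetone in libraries labelled ali1, against 11.1 FPKM after oxo-C14-HSL and 15.0 FPKM after acetone in libraries labelled Col-0. Its level was 11.1 FPKM or more in all 4 groups, so neither label marks libraries without ALI1 RNA. A higher level in libraries labelled ali1 goes against that label, although the tables of both labels were normalized in separate runs. The description field of the submission also ties each sample to the table of the other genotype. Each group is thus called by its label, and a direction drawn from a label holds only if the label does. The spacing of the low FPKM values put between 68630000 and 72570000 fragments behind each group of 3 libraries. Photosynthesis genes of the mesophyll summed to between 14221 and 15420 FPKM in the 4 groups, whereas 5 root hair and root epidermis markers summed to between 0.0602 and 0.623 FPKM, so that root hair transcripts were all but absent from RNA labelled as whole seedling.

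Stomata, the pores of the leaf epidermis, form from a lineage of dividing epidermal cells. The basic helix-loop-helix factors SPCH, MUTE and FAMA (symbol FMA in the tables) act one after another, SPCH in starting the lineage and its asymmetric divisions, MUTE in ending them, and FAMA in the last division and in guard cell identity. The secreted peptides EPF2 and EPF1 restrain the lineage through the receptor kinases ER, ERL1 and ERL2 with the receptor-like protein TMM, and BASL marks one side of the dividing cell. Most of these genes are active chiefly in young leaf epidermis, whereas the receptor kinases are used more widely in meristems and young organs. Fewer cells of the lineage and less RNA per cell cannot be told apart in whole seedlings.

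The members lie on chromosomes 1, 2, 3 and 5 (build TAIR10.1, the reference used for positions). The receptor kinases are the long genes of the set. ER (AT2G26330, chromosome 2: 11208080 to 11214662, minus strand) has 27 exons, ERL1 (AT5G62230, chromosome 5: 24996129 to 25002439, plus strand) and ERL2 (AT5G07180, chromosome 5: 2227439 to 2233587, minus strand) have 25 to 27 exons, and TMM (AT1G80080, chromosome 1: 30127819 to 30129649, minus strand) has 1 exon. The peptide genes are short, with EPF1 (AT2G20875) at chromosome 2: 8982863 to 8983814 on the minus strand with 2 exons, and EPF2 (AT1G34245) at chromosome 1: 12472868 to 12473974 on the plus strand with 3 exons. SPCH (AT5G53210) is at chromosome 5: 21586219 to 21589255 on the minus strand, MUTE (AT3G06120) at chromosome 3: 1846442 to 1848259 on the plus strand, and FMA (AT3G24140) at chromosome 3: 8715118 to 8718211 on the minus strand. BASL (AT5G60880) is at chromosome 5: 24488289 to 24489836 on the minus strand. ERL1 overlaps its neighbour AT5G62240, so that reads in the overlap may have been split between both genes, and the other 9 members overlap no annotated gene. The locus listed with the values of ERL1 runs from 24996129 to 25004783, past the end of the gene. Whether reads of the neighbour entered the value of ERL1 was not tested.

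The 250 bases before the annotated start of the peptide and receptor genes are printed because these 6 genes include both the highest and nearly the lowest ratios of the set and because the transcription factors of the lineage belong to a family that binds E-boxes. The windows are EPF1 (chr2:8983815-8984064, minus strand), EPF2 (chr1:12472618-12472867, plus strand), ER (chr2:11214663-11214912, minus strand), ERL1 (chr5:24995879-24996128, plus strand), ERL2 (chr5:2233588-2233837, minus strand) and TMM (chr1:30129650-30129899, minus strand), read 5′ to 3′ along the gene from the RefSeq genome TAIR10.1, with matches to the E-box CANNTG in capitals.
EPF1: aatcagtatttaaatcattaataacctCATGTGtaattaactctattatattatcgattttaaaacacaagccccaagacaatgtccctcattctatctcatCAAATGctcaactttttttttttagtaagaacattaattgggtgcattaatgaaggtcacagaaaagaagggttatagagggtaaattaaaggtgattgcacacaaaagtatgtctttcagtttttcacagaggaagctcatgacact
EPF2: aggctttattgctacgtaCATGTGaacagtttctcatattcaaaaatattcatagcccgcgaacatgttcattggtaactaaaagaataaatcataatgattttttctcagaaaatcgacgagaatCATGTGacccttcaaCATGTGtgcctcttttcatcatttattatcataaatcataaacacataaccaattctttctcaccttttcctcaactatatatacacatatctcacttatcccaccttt
ER: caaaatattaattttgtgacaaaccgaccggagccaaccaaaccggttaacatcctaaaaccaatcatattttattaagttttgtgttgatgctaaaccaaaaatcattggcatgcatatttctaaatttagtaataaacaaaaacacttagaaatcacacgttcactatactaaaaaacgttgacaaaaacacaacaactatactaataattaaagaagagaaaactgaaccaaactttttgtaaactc
ERL1: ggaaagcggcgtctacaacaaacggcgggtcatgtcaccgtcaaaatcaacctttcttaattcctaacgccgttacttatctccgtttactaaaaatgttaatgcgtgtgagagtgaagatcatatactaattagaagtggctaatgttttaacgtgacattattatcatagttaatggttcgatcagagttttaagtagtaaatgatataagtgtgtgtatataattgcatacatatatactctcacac
ERL2: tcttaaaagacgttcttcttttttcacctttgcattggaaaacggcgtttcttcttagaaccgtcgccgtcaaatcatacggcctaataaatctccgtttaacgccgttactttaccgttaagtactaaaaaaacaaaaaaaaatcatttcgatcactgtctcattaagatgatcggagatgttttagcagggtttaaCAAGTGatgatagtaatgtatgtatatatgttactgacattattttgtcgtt
TMM: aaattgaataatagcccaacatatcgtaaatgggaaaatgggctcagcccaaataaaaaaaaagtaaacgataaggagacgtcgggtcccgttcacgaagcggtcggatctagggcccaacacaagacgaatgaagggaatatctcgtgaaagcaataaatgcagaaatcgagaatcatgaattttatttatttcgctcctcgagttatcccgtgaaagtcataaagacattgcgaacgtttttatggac
CANNTG reads the same on both strands, so 1 search covers both. It matched 2 times before EPF1, 3 times before EPF2 and 1 time before ERL2, and had no match in the windows of ER, ERL1 and TMM. Of the other members, FMA had 2 matches, MUTE and BASL had 1 match each and SPCH had none. Across the same window of 27443 protein-coding genes, 55.3% held at least 1 match, and the G-box CACGTG, an E-box itself, was in 6.49% of all windows and in no member's window. A match is a string of letters and not a measured binding site, and a link between matches and ratios was not tested.

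Among libraries labelled ali1, 7 of the 10 members had a higher value after oxo-C14-HSL than after acetone and FMA, TMM and ERL1 had a lower one, with folds from 0.893 for TMM to 2.02 for EPF1. Among libraries labelled Col-0, every one of the 10 members was higher after oxo-C14-HSL, from 1.14-fold for FMA to 2.83-fold for EPF1. Ratios below are log2 of oxo-C14-HSL over acetone with 0.1 FPKM added to both, and the folds printed for single genes are plain quotients. Counts of loci past a fold use the ratio with 0.1 FPKM added. A locus entered a count where the mean of its 2 groups was at least 0.5 FPKM. Of the 10 members, 9 passed that filter in each table, and EPF1 did not in either. None of the 9 was at least 2-fold higher after oxo-C14-HSL under the ali1 label, where 0.533% of 18205 loci were, and none under the Col-0 label, where 2.37% of 18291 loci were. None was at least 2-fold lower, a size reached by 0.846% of loci under the ali1 label and by 0.574% of loci under the Col-0 label.

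**Figure D1:**
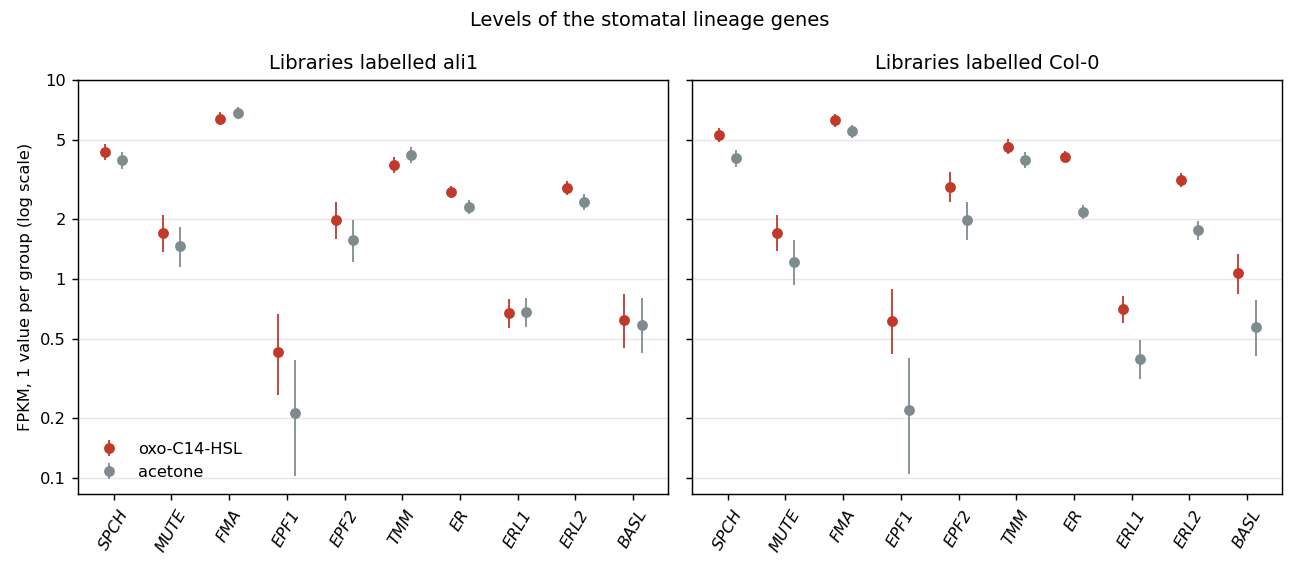
FPKM of each member (log axis) in the groups pretreated with oxo-C14-HSL (red) and acetone (grey), in libraries labelled ali1 (left) and Col-0 (right). Points are the authors' single value per group over 3 libraries and bars are exact 95% Poisson intervals from the estimated fragments, which cover counting error only. FMA had the highest level and EPF1 the lowest in all 4 groups, and under the Col-0 label every red point lies above its grey one.

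At a milder size of 1.5-fold, no member that passed the filter was higher under the ali1 label, where 1.41% of all loci and 2.68% of 6606 loci in the members' range of level (0.605 to 6.61 FPKM) were. ER, ERL1, ERL2 and BASL were under the Col-0 label, 4 of the 9 members that passed the filter, whereas 8.40% of all loci were at least that much higher. Loci of low level, however, lay higher as a whole under the Col-0 label. Their median log2 ratio was 0.33 at 0.5 to 1 FPKM, 0.25 at 1 to 2 FPKM, 0.14 at 2 to 4 FPKM and 0.05 at 4 to 8 FPKM, against -0.08 at 16 FPKM or more. Within the members' own range of level, 0.548 to 5.89 FPKM, 19.2% of 6374 loci were at least 1.5-fold higher. After subtracting the running median, or with 1 FPKM added in place of 0.1, 2 of the 9 members, ER and ERL2, were left past 1.5-fold. The share of all loci at least 1.5-fold higher was not counted under these scalings, so the shares above are not its background.

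The direction reads the same way against its background. Of the members that passed the filter, 6 of 9 had a log2 ratio above 0 under the ali1 label, where 52.7% of all loci and 50.0% of loci in the members' range did, and 9 of 9 under the Col-0 label, where 49.0% of all loci and 68.6% of loci in the members' range did. The median log2 ratio of the 9 members was 0.14 under the ali1 label, where all loci had 0.01, and 0.54 under the Col-0 label, where all loci had -0.01 and loci in the members' range had 0.18. Set against the running median of loci nearest in level, 7 of 9 members lay above it under the ali1 label and 9 of 9 under the Col-0 label. By its making, about as many of all loci lie above that median as below it. What part of the upward shift of low loci is in the members' ratios was not tested.

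**Figure D2:**
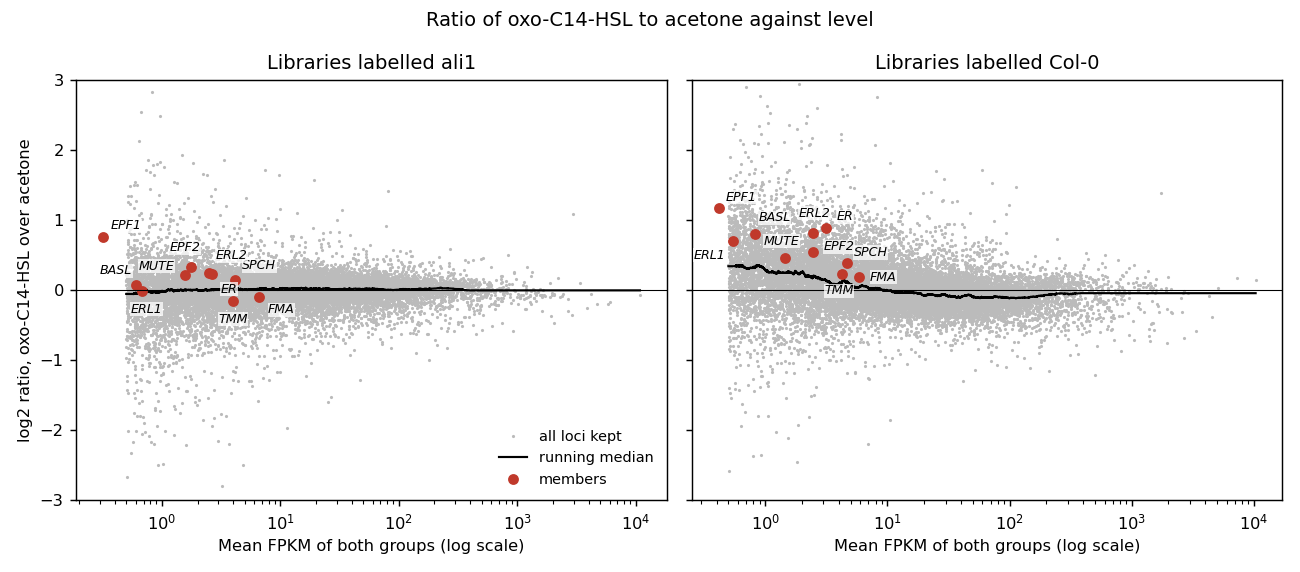
Log2 ratio of oxo-C14-HSL over acetone (0.1 FPKM added to both) against the mean FPKM of both groups (log axis), in libraries labelled ali1 (left) and Col-0 (right). Grey points are all loci with a mean of at least 0.5 FPKM, the line is their running median and red points are the 10 members. The axis leaves out 55 loci under the ali1 label and 72 loci under the Col-0 label beyond 3 in either direction. The running median stays near 0 under the ali1 label and is higher towards low levels under the Col-0 label, and the members sit above it there.

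Of the transcription factors, SPCH, which starts the lineage, had 4.36 FPKM after oxo-C14-HSL and 3.95 FPKM after acetone in libraries labelled ali1, a ratio of 1.10 (95% interval 0.966 to 1.26). In libraries labelled Col-0 it had 5.26 FPKM after oxo-C14-HSL and 4.03 FPKM after acetone, 1.30-fold (1.15 to 1.48). Intervals are exact for the ratio of 2 estimated fragment counts and cover counting error only. They leave out the spread between libraries and treat copies made by PCR as separate fragments, so that an interval clear of 1 does not show a difference between treatments. SPCH has 2 annotated transcripts, and its value rested on an estimated 583 to 610 fragments after oxo-C14-HSL and 422 to 442 after acetone under the Col-0 label, by the shortest and the longest transcript.

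MUTE, which ends the asymmetric divisions, was one of the quieter factors. It had 1.70 FPKM after oxo-C14-HSL and 1.46 FPKM after acetone under the ali1 label, from an estimated 88 and 76 fragments, and the interval of this fold of 1.17 (0.846 to 1.60) held 1. MUTE had 1.70 FPKM after oxo-C14-HSL and 1.21 FPKM after acetone under the Col-0 label, 1.41-fold (1.01 to 1.97). FAMA, which acts last, had the highest level of the set and the smallest ratio under the Col-0 label. It had 6.38 FPKM after oxo-C14-HSL and 6.83 FPKM after acetone under the ali1 label (0.934-fold, 0.844 to 1.03), and 6.27 FPKM after oxo-C14-HSL and 5.51 FPKM after acetone under the Col-0 label (1.14-fold, 1.02 to 1.27). Log2 ratios of the factors under the Col-0 label were 0.38 for SPCH, 0.46 for MUTE and 0.18 for FMA, the lower part of the members' range.

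Of the secreted peptides, EPF2, the early signal that limits entry into the lineage, had 1.98 FPKM after oxo-C14-HSL and 1.56 FPKM after acetone under the ali1 label, 1.26-fold (0.913 to 1.76). Under the Col-0 label it had 2.91 FPKM after oxo-C14-HSL and 1.97 FPKM after acetone, 1.48-fold (1.12 to 1.97), just short of the 1.5-fold line. EPF1, the later signal that spaces stomata apart, was the scarcest member. It had 0.428 FPKM after oxo-C14-HSL and 0.212 FPKM after acetone under the ali1 label, about 20 and 10 fragments over 3 libraries, a fold of 2.02 with an interval of 0.897 to 4.80. It had 0.617 FPKM after oxo-C14-HSL and 0.218 FPKM after acetone under the Col-0 label, about 30 and 10 fragments, 2.83-fold (1.35 to 6.51). EPF1 is the member with the highest ratio under both labels and also the one with the fewest fragments, and its fold under the ali1 label could not be told from 1 at this depth.

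The ERECTA-family receptor kinases perceive these peptides. ER, the member that is also widely used in stem and organ growth, had 2.74 FPKM after oxo-C14-HSL and 2.31 FPKM after acetone under the ali1 label, 1.19-fold (1.06 to 1.32). Under the Col-0 label it had 4.12 FPKM after oxo-C14-HSL and 2.18 FPKM after acetone, 1.89-fold (1.71 to 2.1), the best counted of the larger ratios, from an estimated 1133 and 565 fragments. Its log2 ratio of 0.89 there lay 0.76 above the running median of loci of like level.

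ERL2, its paralogue, had ratios close to those of ER under both labels. It had 2.87 FPKM after oxo-C14-HSL and 2.43 FPKM after acetone under the ali1 label (1.18-fold, 1.04 to 1.34), and 3.15 FPKM after oxo-C14-HSL and 1.75 FPKM after acetone under the Col-0 label (1.80-fold, 1.57 to 2.06). ERL1 was the least abundant of the 3 kinases. It had 0.670 FPKM after oxo-C14-HSL and 0.678 FPKM after acetone under the ali1 label (0.988-fold, 0.776 to 1.25), and 0.703 FPKM after oxo-C14-HSL and 0.394 FPKM after acetone under the Col-0 label (1.79-fold, 1.35 to 2.35). Its intervals overlapped under the ali1 label and were apart under the Col-0 label. Because both tables were normalized in separate runs, levels across labels stand side by side and are not a comparison.

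TMM, the receptor-like protein without a kinase domain that works with these receptors, had a ratio lower in value than each of theirs under both labels. It had 3.75 FPKM after oxo-C14-HSL and 4.20 FPKM after acetone under the ali1 label (0.893-fold, 0.783 to 1.02), the lowest ratio of the set there. That interval overlapped the interval of ERL1 under the ali1 label (0.776 to 1.25). TMM had 4.62 FPKM after oxo-C14-HSL and 3.94 FPKM after acetone under the Col-0 label (1.17-fold, 1.03 to 1.33), a log2 ratio of 0.22 that lay 0.11 above the running median, the smallest such gap of the 10 members. Its interval of fold under the Col-0 label ended below the lower bounds of ER, ERL1 and ERL2, in counting error alone.

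BASL, the polarity protein of the asymmetric division, had 0.622 FPKM after oxo-C14-HSL and 0.589 FPKM after acetone under the ali1 label, 1.06-fold (0.670 to 1.66). BASL had 1.07 FPKM after oxo-C14-HSL and 0.572 FPKM after acetone under the Col-0 label, 1.86-fold (1.24 to 2.79). The value rested on 76 to 78 fragments after oxo-C14-HSL and 39 to 40 after acetone. The counting intervals of both treatments overlapped under the ali1 label, and under the Col-0 label they were 0.836 to 1.33 FPKM after oxo-C14-HSL and 0.409 to 0.787 FPKM after acetone.

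**Figure D3:**
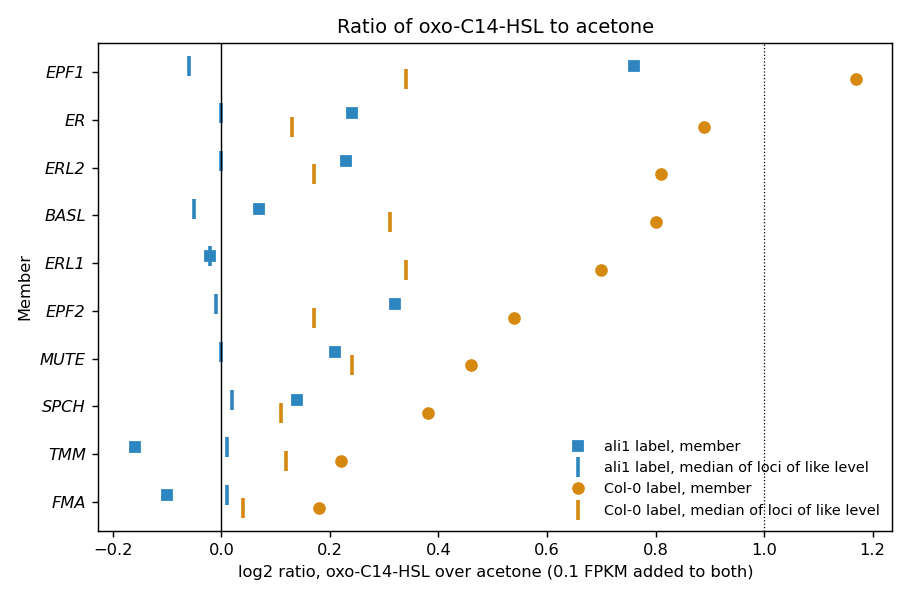
Log2 ratio of oxo-C14-HSL over acetone (0.1 FPKM added to both) for each member, in libraries labelled ali1 (squares) and Col-0 (circles), ordered by the ratio under the Col-0 label. Upright ticks give the running median of loci of like level and the dotted line is 2-fold. Only EPF1 under the Col-0 label (1.17) passes the dotted line, and each circle lies to the right of its square.

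In every member the log2 ratio was lower under the ali1 label than under the Col-0 label, by 0.22 (EPF2) to 0.73 (BASL). Of all loci kept in both tables, a share of 47.6% was lower under the ali1 label, and of the 6330 loci in the members' range of level 66.8% were. The gap was 0.66 for ER, 0.72 for ERL1 and 0.58 for ERL2, and 0.24 for SPCH, 0.25 for MUTE and 0.28 for FMA. These gaps were taken without subtracting the running median. Relative to it, MUTE had 0.21 under the ali1 label and 0.22 under the Col-0 label. In the same order EPF1 had 0.82 and 0.84, EPF2 0.32 and 0.37, and SPCH 0.12 and 0.26. FMA had -0.11 and 0.15, TMM -0.16 and 0.11, and ER 0.24 and 0.76. ERL1 had 0.00 and 0.37, ERL2 0.23 and 0.64, and BASL 0.11 and 0.48. The difference between the labels was not tested, since each rests on 1 value per group.

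The order of levels, which FPKM allows between genes because it is per length, was similar in all groups, with FMA first and EPF1 last in value in each of the 4. Many neighbours in that order could not be told apart within counting error. The intervals of 5 of 9 neighbouring pairs overlapped after oxo-C14-HSL and 4 of 9 after acetone under the ali1 label, and 4 of 9 after oxo-C14-HSL and 6 of 9 after acetone under the Col-0 label. SPCH and TMM overlapped in all 4 groups, at 3.97 to 4.77 FPKM for SPCH and 3.40 to 4.12 FPKM for TMM after oxo-C14-HSL under the ali1 label. FMA was clear of its next neighbour in all 4 groups. EPF1, last in value, was clear of the member above it only after acetone under the ali1 label, where EPF1 had 0.102 to 0.392 FPKM and BASL 0.424 to 0.802 FPKM. The intervals of ER and ERL2 overlapped in both groups under the ali1 label and were apart in both groups under the Col-0 label, where ER had 3.89 to 4.37 FPKM and ERL2 2.91 to 3.40 FPKM after oxo-C14-HSL.

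The rest of the pathway was read from 6 lists of 42 genes, of which 37 passed the filter in each table. Under the ali1 label none of the 37 was at least 1.5-fold higher, a size reached there by only 1.41% of all loci and 2.68% of those in the members' range of level. The Col-0 label had 12 of the 37 at least 1.5-fold higher and 5 at least 2-fold higher, whereas 8.40% of all loci were at least 1.5-fold higher there, 19.2% of those in the members' range of level were, and 2.37% of all loci were at least 2-fold higher. None of the 37 was 2-fold lower under either label, as were 0.846% of all loci under the ali1 label and 0.574% under the Col-0 label. The median log2 ratio of the 37 was 0.04 under the ali1 label and 0.19 under the Col-0 label.

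The core regulators beside the members were near level. ICE1 (SCRM), the partner of SPCH, MUTE and FAMA, had 12.2 FPKM after oxo-C14-HSL and 12.7 FPKM after acetone under the ali1 label, and 14.1 FPKM after oxo-C14-HSL and 12.4 FPKM after acetone under the Col-0 label. Its homologue SCRM2 had log2 ratios of 0.15 under the ali1 label and 0.24 under the Col-0 label, and none of the 4 genes of this list reached 1.5-fold under either. Co-receptors and kinases below the receptors, several of which are shared with flg22 signalling, were also level, with a median of 0.04 under the ali1 label and -0.01 under the Col-0 label and none of 9 at 1.5-fold. MPK6, a MAP kinase at the end of the cascade, had 118 FPKM in both groups under the ali1 label, and 108 FPKM after oxo-C14-HSL and 124 FPKM after acetone under the Col-0 label. BIN2 had log2 ratios of 0.00 under the ali1 label and -0.21 under the Col-0 label. The loci of BIN2, SERK1, MKK4 and MPK3 in this list were each counted together with a second gene, so their values are not of 1 gene alone.

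Ligands and proteases stood higher, with a median log2 ratio of 0.37 under the ali1 label and 0.75 under the Col-0 label. None of 5 measured genes was at least 1.5-fold higher under the ali1 label, where 2.68% of loci in the members' range of level were. Under the Col-0 label 4 of 5 were, beside 19.2% of loci in the members' range. EPFL5, a peptide of the EPF family, had 0.593 FPKM after oxo-C14-HSL and 0.623 FPKM after acetone under the ali1 label, and 0.983 FPKM after oxo-C14-HSL and 0.404 FPKM after acetone under the Col-0 label, a log2 ratio of 1.10. EPFL1 had log2 ratios of 0.50 under the ali1 label and 0.59 under the Col-0 label, and the protease CRSP, which processes EPF2, had 0.51 under the ali1 label and 0.08 under the Col-0 label. STOMAGEN, the mesophyll peptide that opposes EPF1 and EPF2 at the same receptors, was picked out after its values were seen. It had 1.91 FPKM after oxo-C14-HSL and 1.47 FPKM after acetone under the ali1 label, and 2.63 FPKM after oxo-C14-HSL and 1.30 FPKM after acetone under the Col-0 label, a log2 ratio of 0.96. With nothing added that log2 ratio was 1.02, so STOMAGEN was past 2-fold by plain quotient and is not in the counts at 2-fold. STOMAGEN and the restraining peptides EPF1 and EPF2 were each higher in value after oxo-C14-HSL under both labels. Of loci in the members' range of level, 50.0% under the ali1 label and 68.6% under the Col-0 label were higher too. EPF1 did not pass the filter. Under the ali1 label the intervals of EPF1 (0.897 to 4.80) and EPF2 (0.913 to 1.76) held 1, and no interval was made for STOMAGEN.

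Polarity and division genes of the lineage had a median log2 ratio of 0.06 under the ali1 label and 0.84 under the Col-0 label, where 3 of 6 were at least 2-fold higher, as were 2.37% of all loci. The median log2 ratio of all loci was itself 0.33 at 0.5 to 1 FPKM and 0.25 at 1 to 2 FPKM under the Col-0 label, the levels at which these 3 lie, and the 95th percentiles there were 1.34 and 1.09. The 3 were the cell cycle genes CDKB1;1, CDKB1;2 and CYCA2;3, which act in the divisions of the lineage. CDKB1;1 had 0.894 FPKM after oxo-C14-HSL and 0.845 FPKM after acetone under the ali1 label, and 1.08 FPKM after oxo-C14-HSL and 0.483 FPKM after acetone under the Col-0 label. CDKB1;2 had log2 ratios of 0.06 under the ali1 label and 1.11 under the Col-0 label, and CYCA2;3 had -0.12 under the ali1 label and 1.01 under the Col-0 label. The most abundant genes of the list did not share this, BRXL2, a polarity partner of BASL, with log2 ratios of 0.03 under the ali1 label and 0.27 under the Col-0 label, and CYCD5;1, a D-type cyclin, with 0.22 under the ali1 label and 0.01 under the Col-0 label.

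Genes of the mature guard cell had a median log2 ratio of 0.00 under the ali1 label and 0.15 under the Col-0 label, with 3 of 9 at least 1.5-fold higher under the Col-0 label, beside 8.40% of all loci and 19.2% of those in the members' range of level. OST1, a kinase of stomatal closure, had log2 ratios of 0.01 under the ali1 label and -0.13 under the Col-0 label, and MYB60, a guard cell transcription factor, had -0.07 under the ali1 label and 0.33 under the Col-0 label. Of the epidermal layer genes, PDF1, a gene of the outermost cell layer of the shoot, stood far from the rest. PDF1 had 31.2 FPKM after oxo-C14-HSL and 30.8 FPKM after acetone under the ali1 label, and 65.1 FPKM after oxo-C14-HSL and 30.2 FPKM after acetone under the Col-0 label, a log2 ratio of 1.11 at a level where the median of all loci was -0.08. ATML1, a regulator of epidermal identity, had log2 ratios of 0.26 under the ali1 label and -0.02 under the Col-0 label, so the genes of this list did not share 1 direction.

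Markers of dividing cells were higher alongside the members under the Col-0 label. Of 8 listed genes, 7 passed the filter in each table, with a median log2 ratio of 0.31 under the ali1 label and 0.74 under the Col-0 label, and 5 of 7 were at least 1.5-fold higher under the Col-0 label, beside 19.2% of loci in the members' range of level. Their summed level was 12.2 FPKM after oxo-C14-HSL and 10.2 FPKM after acetone under the ali1 label, and 18.2 FPKM after oxo-C14-HSL and 11.1 FPKM after acetone under the Col-0 label. KNOLLE, the syntaxin of the dividing cell plate, had 2.04 FPKM after oxo-C14-HSL and 1.91 FPKM after acetone under the ali1 label, and 3.80 FPKM after oxo-C14-HSL and 1.83 FPKM after acetone under the Col-0 label. The mitotic cyclin CYCB1;2 had log2 ratios of 0.32 under the ali1 label and 1.04 under the Col-0 label, and the mitotic kinase CDKB2;1 had 0.38 under the ali1 label and 0.74 under the Col-0 label. The part of dividing cells in the members' ratios was not tested.

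Of 3 shoot meristem markers only STM passed the filter, with 0.560 FPKM after oxo-C14-HSL and 0.557 FPKM after acetone under the ali1 label, and 0.709 FPKM after oxo-C14-HSL and 0.311 FPKM after acetone under the Col-0 label. The defining meristem genes WUS and CLV3 were at or near 0, CLV3 at 0.146 FPKM or less and WUS at 0.0135 FPKM or less in all 4 groups. None of the 5 root hair and root epidermis markers passed the filter, the highest being PRP3 at 0.276 FPKM after acetone under the ali1 label and EXPA7 at 0.197 FPKM in that group. Of the 4 mesophyll genes none reached 1.5-fold, RBCS1A with log2 ratios of -0.07 under the ali1 label and 0.14 under the Col-0 label and RCA with -0.06 under the ali1 label and -0.11 under the Col-0 label. Their medians were -0.06 under the ali1 label and 0.12 under the Col-0 label, below those of the members, which lie at far lower levels. All loci at 16 FPKM or more, the open range that holds the mesophyll genes, had medians of 0.01 under the ali1 label and -0.08 under the Col-0 label. Each of the 4 mesophyll genes had 750 FPKM or more in every group, and loci of such high levels were not summarised apart. The mesophyll medians thus have no background of like level here. The part of these tissues in the members' ratios was not tested.

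**Figure D4:**
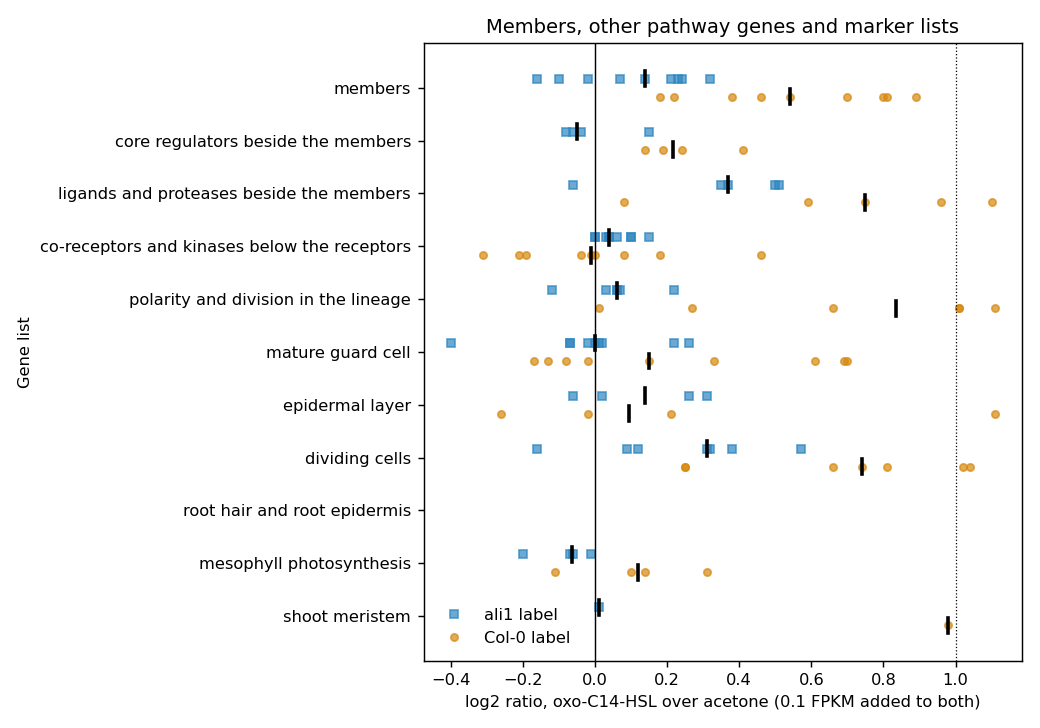
Log2 ratio of oxo-C14-HSL over acetone (0.1 FPKM added to both) for the 9 members and the genes of each list that passed the filter, in libraries labelled ali1 (blue squares) and Col-0 (orange circles). Black bars are medians and the dotted line is 2-fold. Medians of the members, of ligands and proteases, of polarity and division genes and of dividing cells are above 0.5 under the Col-0 label, as is the 1 shoot meristem gene, and that of co-receptors and kinases is -0.01. The root hair row is empty because no gene passed.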

How the data were processed

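Total RNA of Arabidopsis seedlings was enriched with oligo-dT and sequenced as single-end reads of 100 bases. The authors aligned reads with RNAStar, assembled and quantified with Cufflinks 2.2.1.0, and compared treatments with Cuffdiff 2.2.1.5 in 1 run per genotype, on build TAIR10, and the annotation used is not given in these sources. The deposited FPKM are 1 value per group, made by the authors over 3 libraries. The tables also hold the authors' fold changes, test statistics, p-values and q-values, which were not used.

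Ratios were log2 of oxo-C14-HSL over acetone with 0.1 FPKM added, for loci with a mean of at least 0.5 FPKM, and a fold of 2 was the threshold. Without replicate values no test, SD or p-value was possible. Genes were matched by symbol and position to RefSeq TAIR10.1, and 42 pathway and 20 marker genes were used. Genes named are all members, list genes past the threshold, and the 2 of highest mean level per list, with STOMAGEN, WUS and the genes of the closing section picked out after their values were seen. Members and lists were chosen with earlier results of these data known.

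Depth was estimated from low loci of genes with 1 transcript. FPKM times effective length (transcript length less 199 bases) fell within 0.15 of a whole multiple of 1 step in 89.4% to 95.6% of 2246 to 2413 values below 5.5 steps per group. The method assumes the default fragment length of 200. It was tested on data simulated with that same length, which cannot check the assumption. It gives fragments over 3 libraries, exact 95% Poisson intervals, and exact intervals of ratios (Clopper-Pearson). Python 3.11.15 with numpy, pandas, scipy and matplotlib was used. Alternatives were no pseudocount, a pseudocount of 1 FPKM, no filter, a mean of at least 1 FPKM, a fold of 1.5, centring on the median, subtracting the running median, and loci with 1 named gene. The range of level and the inclusion of the ER namesake were added after the data were seen.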

Additional observations from a re-analysis of the deposited data

How the results depend on the processing

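With no pseudocount, with 1 FPKM added and after centring on the median, 7 of 10 members were above 0 under the ali1 label and 10 of 10 under the Col-0 label, and after subtracting the running median 8 were under the ali1 label and 10 under the Col-0 label. No member that passed the filter was past 2-fold under any scaling. Without the filter, and with 0.1 FPKM added, none was past 2-fold under the ali1 label and 1 (EPF1) under the Col-0 label, and the plain quotient of EPF1 was 2.02 under the ali1 label. With the filter, none was past 1.5-fold under the ali1 label and 4 were under the Col-0 label, a count of 2 with 1 FPKM added or after subtracting the running median, which was tried at 1.5-fold after seeing the data. The share of all loci past 1.5-fold was not counted with 1 FPKM added or after that subtraction. With 1 FPKM added the members' median under the Col-0 label was 0.32 in place of 0.54, and EPF1 had 0.41 in place of 1.17, as the larger constant pulls low values together.

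The share of all loci past the threshold in either direction was 1.38% under the ali1 label and 2.95% under the Col-0 label. It was 0.599% under the ali1 label and 0.929% under the Col-0 label with 1 FPKM added, 3.72% under the ali1 label and 5.29% under the Col-0 label without a filter, and 4.31% under the ali1 label and 10.5% under the Col-0 label at 1.5-fold. With a mean of at least 1 FPKM it was 0.895% under the ali1 label. With the ER namesake counted, an alternative chosen after seeing the data, the medians were 0.12 under the ali1 label and 0.50 under the Col-0 label.

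No paired analysis was possible because the tables hold 1 value per group and no replicate values, and for the same reason leaving out a library was not run. EPF1 rests on 10 to 30 fragments per group, BASL on 39 to 78 and MUTE on 62 to 92, which limits the precision of their ratios.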

Other observations

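The 3 EPF-family peptides of the list under the filter had values too low to compare. EPFL2 had 0.349 FPKM after oxo-C14-HSL and 0.10 FPKM after acetone under the ali1 label, and 0.198 FPKM after oxo-C14-HSL and 0.247 FPKM after acetone under the Col-0 label. EPFL4 had 0.236 FPKM after oxo-C14-HSL and 0.349 FPKM after acetone under the ali1 label, and 0.385 FPKM after oxo-C14-HSL and 0.0447 FPKM after acetone under the Col-0 label. EPFL6 had 0.113 FPKM after oxo-C14-HSL and 0.0797 FPKM after acetone under the ali1 label, and 0.242 FPKM after oxo-C14-HSL and 0.0691 FPKM after acetone under the Col-0 label. CYCD7;1, a cyclin of the last division of the lineage, was at 0.123 FPKM or less in all 4 groups, and MUS, a receptor-like kinase of guard cell wall and pore shape, had 0.355 FPKM after oxo-C14-HSL and 0.474 FPKM after acetone under the ali1 label, and 0.649 FPKM after oxo-C14-HSL and 0.276 FPKM after acetone under the Col-0 label.

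Of the mature guard cell genes, the potassium channel genes KAT1 and KAT2 and the transcription factor gene SCAP1 were the 3 past 1.5-fold under the Col-0 label. KAT1 had log2 ratios of -0.02 under the ali1 label and 0.69 under the Col-0 label, KAT2 had 0.00 under the ali1 label and 0.70 under the Col-0 label, and SCAP1 had -0.40 under the ali1 label and 0.61 under the Col-0 label. The anion channel genes SLAC1 and ALMT12 had 0.22 and 0.26 under the ali1 label and -0.08 and 0.15 under the Col-0 label. All genes of this section were picked out after their values were seen.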
